A study of Mus musculus with 6 samples.

Results

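Nppb, the gene of B-type natriuretic peptide, was followed on 6 arrays of mouse RNA, from the heart, whole blood and plasma of control mice and of mice in heart failure (HF). Its probe was found by gene name in the list of named mRNA probes of the study, of which 4093 probes of 3470 genes were held here, a part of a longer list. One gene and 1 probe met the rule (ASMM9PARTA028157, for a transcript of 797 nucleotides), among 59709 probes on the microarray, and the probe was printed as 1 spot on each array. HF was induced in male C57BL/6J mice by subcutaneous isoproterenol, a drug that activates β-adrenergic receptors, for 1 week at 40 mg/kg/day, and saline was given to the controls. The 6 conditions were control heart, HF heart, control whole blood, HF whole blood, control plasma and HF plasma. The ages of the mice were not given in the sources used here. The array methods of the study state that total RNA of 5 mice was mixed for each, while its extraction methods describe blood and plasma pooled from more mice, so the number behind the blood mixtures is not settled. Each mixture was hybridised to 1 array in a single colour. No condition therefore had a replicate, and no test, p value or SD over mice or arrays is given. The SDs given below are over probes. The errors printed here are those that the scanner software gives for a spot within an array. They leave out the spread between mice and between arrays. HF was modelled with a drug that itself acts on the heart, so the drug and HF cannot be told apart.

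Nppb encodes a prohormone of heart muscle. Stretched or overloaded cardiomyocytes increase its transcription, and the mature peptide acts through the receptor Npr1, a guanylyl cyclase, to relax vessels and to promote the excretion of salt and water. The receptor Npr3 binds and clears the peptide, and Corin, a membrane protease of cardiomyocytes, cleaves natriuretic prohormones. The peptide in blood is a widely used marker of HF. What was measured here is the RNA, not the peptide. Nppa, the gene of atrial natriuretic peptide, lies beside Nppb in the genome and is expressed mainly in the atria of the adult heart.

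The upstream regions of the neighbouring genes Nppb and Nppa are shown because both genes were measured and both were several-fold higher in HF heart. Both come from RefSeq on GRCm38.p6, on the plus strand, and each is the 250 bases before the start of the gene, chr4:147985650-147985899 for Nppb and chr4:148000472-148000721 for Nppa. The array itself was annotated on mm9, so the position of the probe is not placed on this build. Capitals mark matches on either strand to AGATAA and TGATAA, which hold the core bound by GATA factors of the heart, to CATTCC, known as the M-CAT element of muscle genes, and to TATAAA, the TATA box.
Nppb: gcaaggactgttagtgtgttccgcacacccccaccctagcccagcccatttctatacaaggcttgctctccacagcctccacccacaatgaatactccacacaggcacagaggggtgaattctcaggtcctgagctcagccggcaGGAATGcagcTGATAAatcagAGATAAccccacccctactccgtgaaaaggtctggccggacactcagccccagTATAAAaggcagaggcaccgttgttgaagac
Nppa: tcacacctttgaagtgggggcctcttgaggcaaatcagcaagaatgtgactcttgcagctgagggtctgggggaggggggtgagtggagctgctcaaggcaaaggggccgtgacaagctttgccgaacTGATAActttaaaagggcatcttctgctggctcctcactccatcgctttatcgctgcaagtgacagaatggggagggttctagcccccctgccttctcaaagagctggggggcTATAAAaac
The upstream region of Nppb held all 4 motifs. TGATAA stood 95 to 90 bases before the start and AGATAA 84 to 79 bases before it, CATTCC stood on the minus strand 105 to 100 bases before it, and TATAAA 31 to 26 bases before it. The upstream region of Nppa held TGATAA 122 to 117 bases and TATAAA 9 to 4 bases before the annotated start. Among 32851 upstream regions of the same length, AGATAA was found in 9.99%, TGATAA in 7.94%, CATTCC in 12.6% and TATAAA in 12.4%, and AGATAA together with TGATAA in 1.33%. These matches describe the letters only, and binding was not measured.

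The arrays differed in how much they detected. A probe counted as detected if most of its spots carried the software's flag for a signal well above background and none an outlier flag, and between 25.0% and 47.3% of all probes passed on an array. Among 1200 spots of the probes that the array names as negative, 12.4% carried that flag in HF plasma, against 0.5% to 4.33% on the other 5 arrays. The arrays of control heart, HF heart, HF whole blood and HF plasma were read in scan 1, in neighbouring positions 1 to 4, and the remaining arrays, both of control blood, were read in scan 2. In the blood arrays scan and HF cannot be told apart, and no value within a scan could be had for a comparison of HF with control blood. The labelled tissues were checked against marker genes. Of 52 cardiomyocyte probes, control heart had 51 detected and HF heart 50, beside 98.2% and 75.5% of all named probes. Of 9 erythroid probes all were detected on both whole blood arrays, and in control plasma too, and 4 in HF plasma. Control heart had 9 of them detected and HF heart 8, so their detection did not set blood apart from heart.

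Nppb was bright in the heart and brighter in HF heart. The processed signal, which has the background subtracted and is not scaled between arrays, was 23377 with an error of 2338 in control heart and 62900 with an error of 6290 in HF heart. In whole blood the signal was 14.1 with an error of 12.3 in the control, which was not well above background, and 2061 with an error of 206 in HF. In plasma it was 5.31 with an error of 5.33 in the control, again not well above background, and 37.6 with an error of 5.69 in HF, where the spot was flagged as well above background. Nppb was thus detected on 4 of 6 arrays, on both heart arrays and on both HF blood arrays. No spot of it was saturated or flagged as an outlier.

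**Figure D1:**
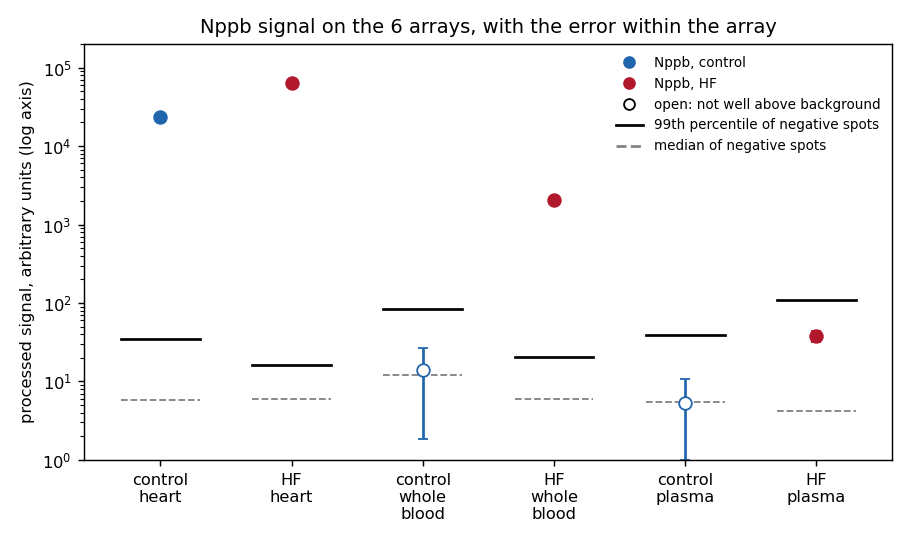
The processed signal of Nppb on each of the 6 arrays, on a log axis, with the error within the array as bars, beside the median and the 99th percentile of 1200 negative control spots. The signals of 23377 and 62900 in the heart and of 2061 in HF whole blood lie above the 99th percentile, while the 37.6 in HF plasma lies below it (111), and the bar of control plasma is cut at the foot of the axis.

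The negative control spots show how firm each detection was. In both hearts and in HF whole blood, 0 of 1200 negative spots reached the signal of Nppb. In control whole blood 198 of them (16.5%) and in control plasma 672 (56%) did. In HF plasma, 117 negative spots (9.75%) were at least as bright as Nppb, although its spot passed the flag. A second control, with 308 hairpin spots, had 0 spots at or above Nppb in HF plasma and 18 in control whole blood. The 14 spots around Nppb in HF whole blood had a median signal of 11.7 and a highest signal of 798, below the 2061 of Nppb.

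After quantile normalization over the 6 arrays, the log2 level of Nppb was 13.33 in control heart, 16.03 in HF heart, 12.18 in whole blood of HF mice and 6.29 in their plasma. The levels of 3.59 in control whole blood and 2.63 in control plasma were of spots that were not detected, and have no order. In descending order Nppb stood at HF heart, control heart and HF whole blood, with HF plasma lowest of the detected spots. HF heart and control heart differed by far more than the error within the arrays. HF whole blood was 59.1-fold above HF plasma, 9.82-fold when scaled to Gapdh, and at least 18.7-fold when the 99th percentile of the negative spots, which the HF plasma spot did not reach, was taken as the floor. Control heart and HF whole blood are the neighbours whose order was least settled. Control heart was 2.22-fold higher after quantile normalization and 11.3-fold higher in unscaled signal, but scaling to Gapdh, the gene of a glycolytic enzyme, put HF whole blood 3.84-fold above control heart. Gapdh itself was far brighter in the heart, with 51558 in control heart against 1182 in HF whole blood, and this scaling removes that difference.

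HF heart had 6.49-fold more Nppb signal than control heart, a log2 difference of 2.70 with an error of 0.20. Both heart arrays detected 20065 probes, of which HF heart had 13.9% at a level 2-fold or more above the control and 12.9% 2-fold or more below it, with a median log2 difference of 0.02. Nppb was among the higher probes, and 230 of the 20065 (1.15%) differed by as much or more. The direction was the same under all 11 settings, and the fold ran from 2.69 to 6.71. Settings that changed only the detection flag could not move this value. The lowest value was that of the unscaled signal, in which the median of all probes was -0.71 on the log2 scale, so Nppb lay 2.14 above that median. When the heart arrays were quantile normalized without the blood arrays, the fold was 3.63 and 4.48% of probes differed by as much or more.

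In whole blood, Nppb passed from not detected to a clear signal. Since the control spot gave no level, the difference is a bound, which sets the level in HF against the lowest level among probes detected in control whole blood. By this bound Nppb in HF exceeded the control at least 84.4-fold. Of all 59709 probes, 5346 (8.95%) passed the flag in whole blood of HF mice but not of controls, so Nppb shared this pattern with many probes. The bound fell to at least 33.7-fold with unscaled signals and to at least 13.8-fold when each array was scaled to Gapdh. Gapdh itself was higher in HF whole blood by 2.33 on the log2 scale, with signals of 482 in the control and 1182 in HF. Nppb was higher in HF whole blood under all 11 settings. However, 9 of these values are bounds, which take their direction from the spot that was detected.

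In plasma the signal of Nppb was close to background. By the same kind of bound, Nppb in HF exceeded the control at least 3.15-fold, and 4630 of 59709 probes (7.75%) passed the flag in HF only. The bound was at least 1.69-fold in unscaled signal. Where a probe counted as detected only above the 99th percentile of the negative spots, Nppb was not detected in HF plasma and no value was left. Nppb in HF plasma was therefore not distinguishable from the brighter negative spots at this signal.

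**Figure D2:**
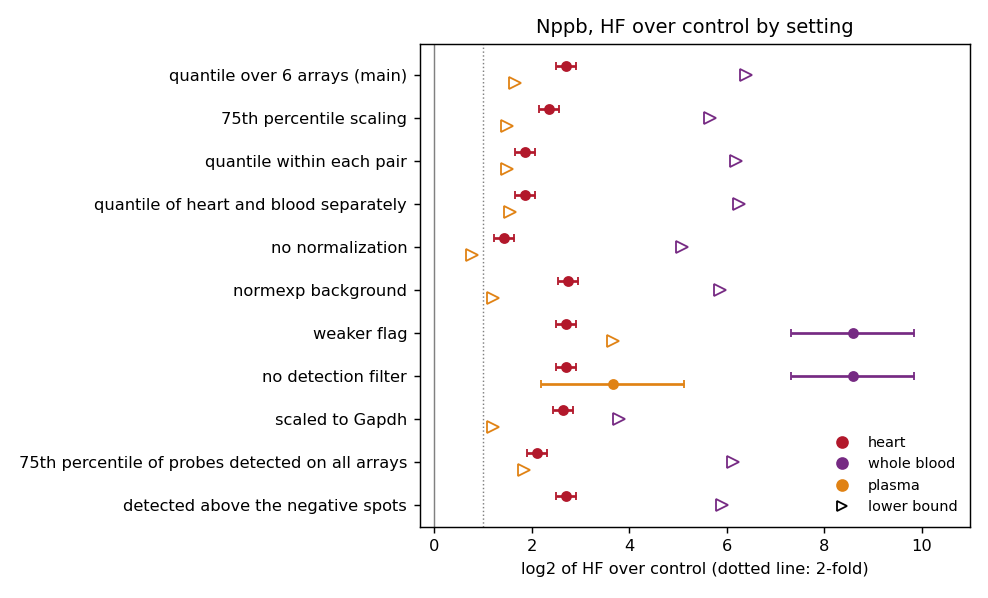
The log2 difference of Nppb between HF and control in heart, whole blood and plasma under 11 settings, with the error within the arrays where both spots were measured and a triangle where the value is a lower bound. The heart lies between 1.43 and 2.75, the whole blood values begin at 3.78, and plasma has no value under the setting that requires a signal above the negative spots.

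The other genes of the natriuretic peptide system give the setting for Nppb. Of 21 genes listed, 9 had a named probe here, with 11 probes. In the heart 9 probes had both spots detected, 5 with a level 2-fold or more above the control and 1 below it, beside 13.9% and 12.9% of all probes, and their median log2 difference was 1.88. Across 8 scalings 5 or 6 were higher and 0 to 2 lower.

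Of the ligands, Nppa ran close to Nppb in the heart. Its signal was 34635 in control heart and 87563 in HF heart, a 6.69-fold difference after normalization (log2 2.74 with an error of 0.20), against the 6.49-fold of Nppb. In control whole blood its signal was 12.2, the lowest value on that array, and in HF whole blood 17569, which made it at least 854-fold higher. In plasma it was 4.62 in the control and 4.25 in HF, not well above background on either array. Nppb and Nppa thus shared a higher level in HF heart and HF whole blood, while of these ligands Nppb alone was flagged in HF plasma.

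The receptors differed from each other. Npr1, which makes cyclic GMP when a natriuretic peptide binds, had a signal of 6371 in control heart and 6437 in HF heart, a log2 difference of 0.59 with an error of 0.20. Under the 8 scalings this ran from 0.01 to 1.22. In whole blood Npr1 was at least 4.07-fold higher in HF, with signals of 23.6 in the control and 149 in HF. Npr3, the clearance receptor, had 2 probes, with signals of 76.6 and 94.5 in control heart and 668 and 676 in HF heart. They were 11.3-fold and 9.45-fold higher in HF heart, the largest differences on the list there, from a low level. In HF whole blood neither Npr3 probe was detected, with signals of 28.6 and 15.7. Both were flagged as detected in control whole blood, with 67.1 and 66.1, and by the bound were at least 1.55-fold and 1.63-fold lower in HF blood. Both signals lay below the 99th percentile of the negative spots in control whole blood (84.3). The lower Npr3 level in HF blood therefore rests on spots not distinguishable from the brighter negative spots, whereas Nppb was clearly higher in HF blood.

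The enzymes that handle the peptides were mixed. Corin had a signal of 1477 in control heart and 424 in HF heart, a log2 difference of -1.09 with an error of 0.21 that stayed at least 2-fold under 5 of 8 scalings. In whole blood its signal went from 812 to 2054 and its log2 difference was 2.58, which ran down to 0.04 when scaled to Gapdh. In plasma the signals were 632 and 785, with a log2 difference of 1.34 that ran down to 0.31 in unscaled signal. In unscaled signal Corin was brighter in both whole blood mixtures than in HF heart, unlike Nppb. Dpp4, a peptidase that can trim B-type natriuretic peptide, had 108 in control heart and 266 in HF heart, 3.69-fold higher after normalization.

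Downstream of the receptor, Pde2a, a phosphodiesterase that cyclic GMP stimulates, had 2 probes that disagreed. They were dim in the heart, and neither was detected in HF heart. In plasma one was lower in HF by a log2 difference of -1.39 and the other higher by 1.36. Their HF plasma signals of 43.7 and 34.7 lay below the 99th percentile of the negative spots there (111). Vasp, a substrate of the kinase that cyclic GMP activates, had 13971 in control heart and 11848 in HF heart, a log2 difference of 0.27 that took the other sign under 1 of 8 scalings. Rgs2, a regulator of G protein signalling that this kinase activates, had 455 and 201, with a log2 difference of -0.42 that also turned under 1 of 8 scalings.

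Nppb was next set against the heart muscle itself. Of 32 cardiomyocyte genes with 52 probes, 49 probes had both heart spots detected, 8 of them 2-fold or more above the control and 9 below it, beside the 13.9% and 12.9% of all probes, with a median log2 difference of -0.12. The split moved with the scaling, from 4 higher and 12 lower in unscaled signal to 13 higher and 5 lower when scaled to Gapdh. Of 16 genes of the cardiac stress program other than Nppb, with 19 probes, 14 were detected on both heart arrays, 7 higher and 1 lower, with a median of 1.05, and in unscaled signal 6 were higher and 4 lower, with a median of 0.38. A further 4 passed the flag in HF heart only, beside 1.5% of all probes. The list includes Nppa. Nppb at 2.70 lay above the median of either list.

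**Figure D3:**
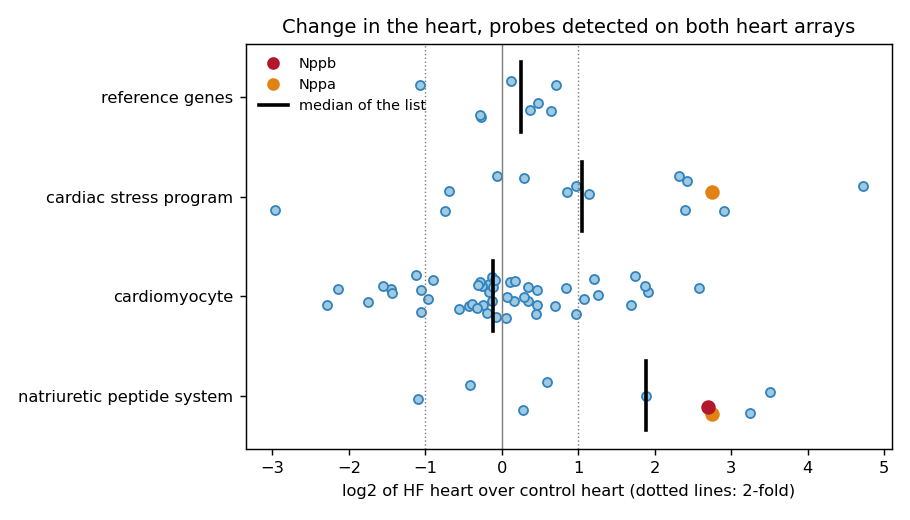
The log2 difference between HF heart and control heart for each probe detected on both heart arrays, for 4 gene lists, with the median of each list as a bar. Nppb (2.70) and Nppa (2.74) lie above the medians of the natriuretic (1.88), stress (1.05) and cardiomyocyte (-0.12) lists.

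By the naming rule, 42 members of these lists were detected on both heart arrays and in HF whole blood, besides Nppa, and the 12 with the largest difference in the heart are named. Higher than Nppb in its fold were Ctgf, a matrix-associated growth factor, with 8605 in control heart and 78897 in HF heart (26.4-fold), and Mt2, a metallothionein, with 9894 and 40202 (7.51-fold). Close below Nppb stood the connexin Gja5 (5.99-fold), the collagen Col3a1 (5.36-fold) and the smooth muscle actin Acta2 (5.23-fold). This order moved with the scaling. In unscaled signal Gja5 (log2 2.14) and Col3a1 (1.80) lay above Nppb (1.43), and Acta2 (1.27) below it. A Tnnt2 probe, for cardiac troponin T, was 3.76-fold higher, but the 9 Tnnt2 probes disagreed, with log2 differences from -0.43 to 1.91.

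The other 6 were lower in HF heart. Acta1, the skeletal actin that is often raised in stressed hearts, had 73680 in control heart and 11172 in HF heart, 7.80-fold lower. Myom1 of the M-band was 4.87-fold lower, the connexin Gja1 4.42-fold, myoglobin (Mb) 3.36-fold, the homeodomain protein Hopx 2.93-fold and the muscle creatine kinase Ckm 2.73-fold. The probes of Mb disagreed, since a dimmer one had 316 in control heart and 404 in HF heart, 1.95-fold higher after normalization. The direction of these 12 probes in the heart was the same under all 8 scalings, and Ckm was the only one not 2-fold different under each of them. Of the reference genes, Gapdh had a log2 difference of -1.07 and Actb, the cytoplasmic actin, of 0.70.

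Heart transcripts other than Nppb also appeared in HF whole blood. Of the cardiomyocyte probes, 20 of 52 were detected in whole blood of controls and 49 of HF mice, beside 64.2% and 73.6% of all named probes, and 30 were well above background in HF only. Of the 18 detected on both arrays, 8 were at least 2-fold higher and 5 lower, beside 21.4% and 26.8% of all probes, and scaling to Gapdh turned this split to 3 higher and 10 lower. In plasma 33 were detected in the control and 22 in HF, beside 81.8% and 64.9% of all named probes, and of the 21 detected on both, 7 were higher and 3 lower, beside 32.1% and 25.6%. The stress list had 7 probes detected on both whole blood arrays, all 7 at least 2-fold higher in HF beside 21.4% of all probes, and 4 of 7 when scaled to Gapdh. Of the 12 genes above, Ctgf was at least 224-fold, the Tnnt2 probe at least 55.2-fold and Col3a1 at least 9.79-fold higher in blood of HF mice. The remaining Tnnt2 probes were lower than this, from a measured 1.52-fold to a bound of at least 30.0-fold. Acta2 was 29.3-fold, Mt2 12.2-fold and Acta1 11.3-fold higher, the last with signals of 99.9 in the control and 584 in HF. Acta1 was therefore lower in HF heart and higher in HF whole blood, whereas Nppb was higher in both. The rest of the 12 differed less in whole blood. An Mb probe was at least 2.14-fold, Gja1 2.06-fold and Ckm 1.41-fold higher in HF, while Hopx was 1.56-fold lower. Gja5 and Myom1 gave no bound.

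The level of Nppb in HF whole blood was compared with its own level in HF heart, since the 2 mixtures were read in the same scan and lay in neighbouring array positions 2 and 3. Nppb was 14.4-fold higher in HF heart (log2 3.85 with an error of 0.20), 30.5-fold in unscaled signal, and 1.61-fold when scaled to Gapdh. The signal of Gapdh was 22399 in HF heart and 1182 in HF whole blood. For Nppb, the signal in HF whole blood was 3.28% of that in HF heart.

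For a comparison with transcripts of like brightness, named probes were taken that both heart arrays detected and that were not well above background in either control blood mixture. There were 346 of them, of which HF whole blood had 67.3% detected and HF plasma 52.0%. Of these, 24 probes of 21 genes, Nppb included, had a signal of at least 10000 in HF heart. HF whole blood had all 24 detected, and HF plasma 3, namely Nppb, Gm1078 and Ldhb. The HF plasma signals of these 3 (37.6, 59.1 and 25.3) lay below the 99th percentile of the negative spots there (111). On that array 12.4% of the negative spots carried the same flag, which also limits the detected shares in HF plasma. The signal in HF whole blood was a median 2.87% of that in HF heart, from 1.84% for Col3a1 to 20.1% for Nppa. Nppb at 3.28% had 7 probes above it in this unscaled signal. After quantile normalization its drop from HF heart to HF whole blood was larger than that of 19 of the 24 probes, 3.85 against a median of 3.54 on the log2 scale, so its place in the set moved with the scaling. Over all 346 probes, most of them dimmer in the heart, the median percentage was 10.5% and 261 lay above Nppb. The 7 above it in unscaled signal were Nppa, Lpl (lipoprotein lipase) at 6.21%, Atp2a2 (the calcium pump of the sarcoplasmic reticulum) at 5.60%, a Tnnt2 probe at 5.40%, Tnni3 (cardiac troponin I) at 5.26%, Actc1 (cardiac actin) at 4.88% and Tnnc1 (cardiac troponin C) at 4.13%. Several of the 24 probes belong to Tnnt2, so they are not independent.

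**Figure D4:**
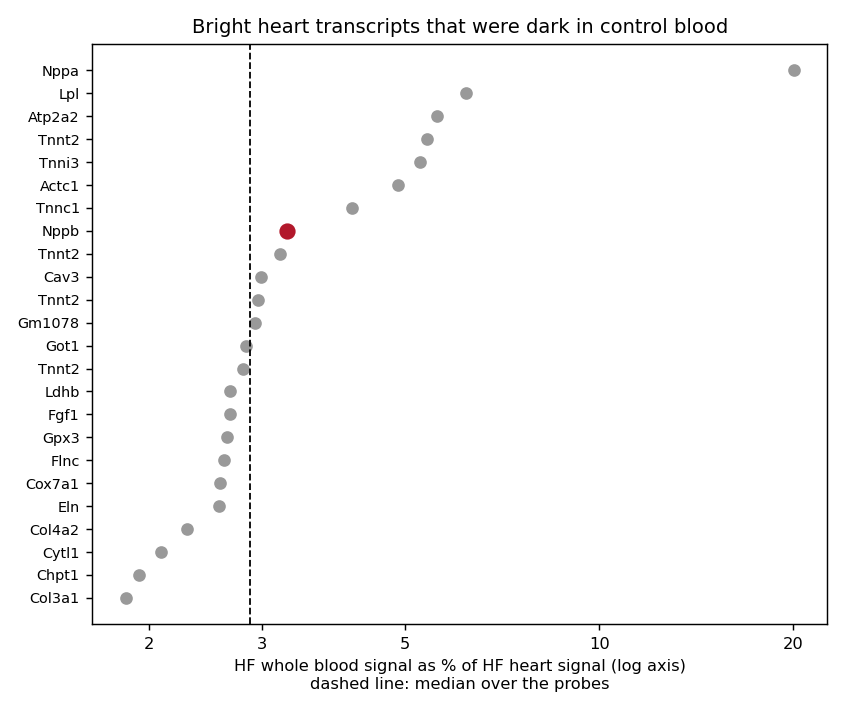
For 24 probes with a signal of at least 10000 in HF heart that were not well above background in control blood, the signal in HF whole blood as a percentage of that in HF heart, on a log axis. Nppb lies at 3.28%, beside a median of 2.87%, and Nppa at 20.1% stands apart from the rest.

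The same 24 probes spread less when set against HF heart than against control heart. The SD over probes of the log2 ratio of HF whole blood to HF heart was 0.73, and 0.50 without Nppa. Against control heart it was 2.09, and 2.02 without Nppa. For Nppb the signal in HF whole blood was 8.81% of that in control heart. Because the 24 were chosen by their signal in HF heart, the 25 probes with at least 10000 in control heart were taken as well, and their SD was 0.75 against HF heart and 1.55 against control heart. These are descriptions of 3 arrays, with no test.

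Markers of other cell types also differed between the blood mixtures. Of 6 neutrophil probes, whole blood had 2 detected in the control and 5 in HF, and their summed normalized signal was 984 and 30225. Of 7 fibroblast probes 2 and 5 were detected, with sums of 8085 and 19576. Both whole blood arrays detected the 9 erythroid probes. In the HF mixture 6 of them were lower by 2-fold or more and 0 higher, beside 26.8% and 21.4% of all probes. Their median log2 difference was -1.98. Their sum, carried by the haemoglobin probes, was 542426 in control and 453850 in HF whole blood, and their sum in plasma was 11999 in HF against 510553 in control plasma. The 52 cardiomyocyte probes summed to 40857 in control and 208567 in HF whole blood, and to 38303 in control and 59367 in HF plasma. Single bright probes weigh on these sums. A Hopx probe went from a log2 level of 10.59 in control plasma to 14.47 in HF plasma, where fewer of the 52 were detected (22 against 33). A Myh6 probe had 14.47 in control whole blood and 14.36 in control plasma, above its 10.88 in control heart. Lower in HF whole blood were the sums of 4 lymphocyte probes (3349 and 1153), 2 platelet probes (6982 and 3132) and 10 skeletal muscle probes (2366 and 818). In the heart, neutrophil markers were higher in HF too, with 4 of 4 probes detected on both arrays at least 2-fold higher and a median of 4.28. Among all probes 13.9% were higher and 12.9% lower. Also higher were 4 of 4 skeletal muscle, 4 of 8 erythroid and 2 of 3 lymphocyte probes, so this was not particular to neutrophil markers. Lower were 2 of 2 platelet and 2 of 7 eye probes. Of 4 endothelial probes 3 were higher, and the fibroblast sum was 9772 in control and 24637 in HF heart. The part of cell makeup in the level of Nppb, in blood or in heart, was not tested. In mixed tissue RNA, fewer cells of a type and less RNA per cell cannot be told apart. Of 8 probes of eye genes, listed because blood was taken by removal of the eyeball, 8 were detected in control and 7 in HF whole blood, and the same numbers in the heart and in plasma, so their detection was not particular to blood.

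Finally, the probes whose profile over the 6 arrays was most like that of Nppb were sought among 2469 named probes detected on both heart arrays and in HF whole blood. The measure was the root mean square difference of log2 levels, each probe centred on its own mean, so that only the shape counts. Its median over all candidates was 5.36. The 5 nearest were a Tnnt2 probe at 1.08, Flnc (filamin C, a muscle cytoskeletal protein) at 1.097, Gpx3 (a secreted glutathione peroxidase) at 1.15, Tnni3 at 1.20 and a further Tnnt2 probe at 1.24. All 5 were bright in both hearts, not detected in control whole blood, detected in HF whole blood at signals from 521 to 2215, and not detected in either plasma mixture. Their detection in both hearts and in HF whole blood was a condition for the candidates. The measure also used the levels of undetected spots, so a low level in control blood was part of what was matched. In the heart they differed from one another. Gpx3 went from 5527 in control heart to 48766 in HF heart, while Tnni3 went from 54187 to 42090. The same 5 probes were nearest without any scaling and when heart and blood were normalized separately.

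**Figure D5:**
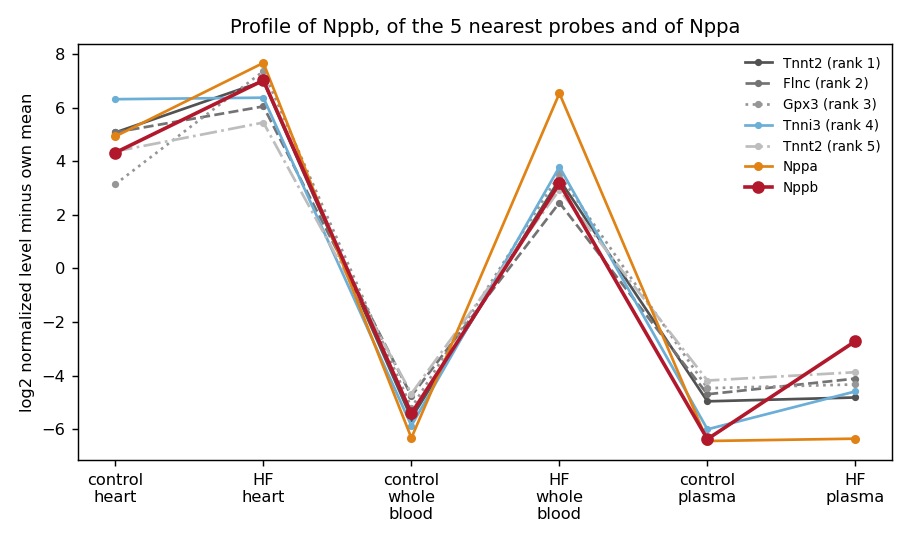
The log2 normalized level of Nppb, of its 5 nearest probes and of Nppa on the 6 arrays, each minus its own mean. Nppb lies with the 5 nearest probes on the heart and whole blood arrays and above them in HF plasma, where it was the only one of these 7 probes flagged as detected, and Nppa stands higher in HF whole blood.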

How the data were processed

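RNA of 6 conditions, 1 array each, was measured on the Arraystar Mouse LncRNA Microarray v2.0 after random-primed labelling. The authors read the images with Feature Extraction 11.0.1.1, and the deposited values are 1-colour intensities with the background subtracted and not normalized between arrays. The deposited series table held the same intensities, with 0 spots that differed (relative tolerance 1e-05). Control spots and 20 negative probes (60 spots each) were left out, and the mean log2 signal of each probe was taken and quantile normalized over 6 arrays. A probe was detected if most of its spots were flagged well above background and none as an outlier. Differences are called at 2-fold. Where 1 array of a pair was not well above background, the brighter level was set against the higher of the dim level of the probe and the lowest level of any detected probe on that array. Errors are the software's within-array errors, combined over a pair. Depth is limited by 1 array per condition, and the median error was 10.5% to 11.4% of the signal.

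Names of mRNAs came from the part of the study's list held here. Of 139 listed probes, 136 accessions were in the RefSeq table and 134 had the same symbol there. The others with a match were Ctgf, now Ccn2, and Hbb-b1, now Hbb-bt. Gene lists and the rule for names were chosen with earlier results of these data known. The rule named the natriuretic genes, the 12 cardiomyocyte or stress genes with the largest heart difference, Gapdh, Actb and the 5 nearest profiles. Pairs of arrays were simulated that held 200 probes with a 4-fold change. Applied to each pair alone, the steps found 100% of these in heart (20065 probes, with 5 unchanged probes called), in whole blood (11938, with 19) and in plasma (12377, with 16). The simulation held the within-array error alone, since these data give no spread between mice or arrays. A 4-fold change is large against that error, so the high recovery says little about smaller changes. Normalization over all arrays of the study, which gave the main values, was not tested by these pairs. Alternatives were quantile normalization of each pair, or of heart and blood separately, 75th percentile scaling, no normalization, normexp background correction (offset 50), a weaker flag, no detection filter, scaling to Gapdh, and thresholds of 1.5-fold and 4-fold. A 75th percentile over probes detected on all arrays and detection above the 99th percentile of the negative spots were added after the data were seen. Python 3.11.15, numpy 2.4.6, pandas 2.3.3, matplotlib 3.10.9, R 4.3.3 and limma 3.58.1 were used.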

Additional observations from a re-analysis of the deposited data

Results flagged for a closer look

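Among the natriuretic genes, the 12 named heart genes, Gapdh and Actb, 9 genes had a probe that differed at least 2-fold between HF and control in opposite directions in different tissues, counting probes detected on both arrays of each tissue. Other listed genes had opposite signs with a smaller difference in at least 1 tissue. These contrasts between tissues were not tested, since each rests on 1 array per condition. The 12 heart genes were picked for a large heart difference, so the heart part of the contrast was met by selection. Among all probes with both spots detected, 13.9% were called higher and 12.9% lower in the heart. These shares were 21.4% and 26.8% in whole blood, and 32.1% and 25.6% in plasma. The share of all probes with opposite calls was not counted, so the 9 genes have no background. Corin had a log2 difference of -1.09 in the heart, of 2.58 in whole blood and of 1.34 in plasma, and the whole blood value was 0.04 when scaled to Gapdh. A Pde2a probe had 1.94 in whole blood and -1.39 in plasma, and its sign in whole blood turned when scaled to Gapdh. The signal of this probe in HF plasma was 43.7, below the 99th percentile of the negative spots there (111). Gapdh had -1.07 in the heart and 2.33 in whole blood.

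Of the heart genes lower in HF heart, Acta1 had -2.96 there and 3.50 in whole blood. Gja1 had -2.14 in the heart, 1.04 in whole blood, where its sign turned under 1 of 8 scalings, and 3.50 in plasma. Hopx had -1.55 in the heart and 3.88 in plasma, and an Mb probe had -1.75 and 1.69. The Mb signals in plasma, 37.9 in the control and 65.5 in HF, lay below the 99th percentile of the negative spots there (39.5 and 111). So did the Gja1 signals in control plasma (37.9) and in control whole blood (72.0, against 84.3). Of those higher in HF heart, Mt2 had 2.91 in the heart, 3.61 in whole blood and -3.40 in plasma, and Acta2 had 2.39, 4.87 and -1.16. The Mt2 signal in HF plasma was 31.8, below the 99th percentile of the negative spots there (111).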

How the results depend on the processing

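No paired analysis was possible because each condition had 1 array, and no replicate could be left out. The direction of Nppb between HF and control, and between HF heart and HF whole blood, was the same under every setting that gave a value. For whole blood and plasma most of these values are bounds, which take their direction from the spot that was detected. The agreement of the bounds was therefore fixed in advance. Settings that changed only the detection flag could not move the values in the heart. The order of control heart and HF whole blood turned when scaled to Gapdh. The cause of the following moves was not tested. For HF heart over control heart, the log2 value of 2.70 was 2.34 with 75th percentile scaling, 1.86 with quantile normalization within each pair and 1.86 of heart and blood separately, 1.43 with no normalization and 2.10 with the 75th percentile of probes detected on all arrays. For whole blood, the log2 bound of 6.40 was 5.66, 6.18, 6.24, 5.08 and 6.12 in the same order, 5.87 with normexp, 3.78 scaled to Gapdh and 5.90 above the negative probes, and the value was 8.59 with the weaker flag and with no detection filter. For plasma, the log2 bound of 1.66 was 0.76 with no normalization, 1.20 with normexp, 3.66 with the weaker flag and with no detection filter, and 1.19 scaled to Gapdh, and there was no value above the negative probes. For HF heart over HF whole blood, 3.85 was 4.17 with 75th percentile scaling, 4.93 with no normalization, 0.69 scaled to Gapdh and 3.53 with the 75th percentile of probes detected on all arrays. Quantile normalization within pairs, or of heart and blood separately, gives no value for that comparison.

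The counts of all probes at least 2-fold different were 5377 in the heart, 5754 in whole blood and 7142 in plasma. In the heart they were 6348 (3941 higher) with 75th percentile scaling, 8834 (959 higher) with no normalization, 2324 with normexp, 8450 with the weaker flag, 10723 with no detection filter, 10296 at 1.5-fold and 784 at 4-fold. In whole blood they were 5868 (1978 higher) with 75th percentile scaling, 6834 (1093 higher) with no normalization, 12151 with the weaker flag, 24249 with no filter and 2329 at 4-fold. In plasma they were 7398 (2315 higher) with no normalization, 15941 with the weaker flag, 25775 with no filter and 4117 at 4-fold. The cardiomyocyte counts were 17 in the heart, 13 in whole blood and 10 in plasma. In the heart they were 15 (10 higher) with 75th percentile scaling, 16 (4 higher) with no normalization and 3 at 4-fold. In whole blood they were 14 (7 higher) with 75th percentile scaling, 11 (4 higher) with no normalization, 8 with normexp, 29 with the weaker flag, 44 with no filter and 7 at 4-fold. In plasma they were 13 (5 higher) with no normalization, 15 with the weaker flag, 25 with no filter and 5 at 4-fold. Signals of undetected spots limit the blood comparisons to bounds.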
